A study of Arabidopsis thaliana with 6 samples.

Results

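The 100 genes with the highest expression in wild type Arabidopsis thaliana root tips were described. They were chosen by the mean FPKM (fragments per kilobase of transcript, scaled to the fragments mapped in the library) of the 3 wild type libraries, out of 33560 genes listed. Over all libraries, 17107 of these genes averaged 1 FPKM or more. Since the wild type values chose the genes, their wild type levels are given as a description and without a test. RNA came from root tips of about 2 mm cut from seedlings 5 days old, grown on medium with 1% sucrose under 16 h of light and 8 h of darkness. The groups were the wild type Columbia-0 and bron-2, each with 3 biological replicates. The bron-2 plants are a single T-DNA insertion line in the gene BRON (AT1G75710). The comparison asks how this insertion changes the transcripts of the root tip, within a study of the hormone brassinosteroid. BRON itself stood at 17.9, 16.1 and 17.3 FPKM in wild type tips and between 0.925 and 1.25 FPKM in bron-2 tips, so no library went against its label.

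A root tip of this length holds the meristem and root cap, the zone where cells elongate, and the first cells to differentiate, which form root hairs on the outside and the Casparian strip around the vascular cylinder. Growing plant cells take up water through aquaporins and loosen and rebuild a wall of cellulose, pectin and secreted glycoproteins. Extensins and arabinogalactan proteins are 2 families of such glycoproteins, both rich in hydroxyproline. In whole tissue, a change in the number of cells of a type and a change of RNA per cell cannot be told apart.

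Among 3 markers of older root tissue, CASP1 and COBL9 were above every marker of the apex, while GL2 lay between 18.3 and 24.2 FPKM, close to the apex gene SCR. CASP1, which marks the endodermis where it forms the Casparian strip, was itself one of the 100 genes, and the root hair gene COBL9 lay between 117 and 149.8 FPKM in all 6 libraries. Among 5 regulators of the root apex, SCR lay between 23.0 and 27.8 FPKM and SHR between 7.12 and 9.84 FPKM. PLT1 (at most 0.930 FPKM), PLT2 (at most 1.63 FPKM) and WOX5 (at most 0.522 FPKM), which mark the stem cell niche, were far lower. The 5 apex regulators summed to between 33.7 and 37.7 FPKM in the wild type and between 34.6 and 39.0 FPKM in bron-2, a sum made up mostly of SCR and SHR. PLT1 stood at 0.780, 0.819 and 0.930 FPKM in wild type tips and 0.506, 0.766 and 0.632 FPKM in bron-2 tips. PLT2 lay between 1.04 and 1.63 FPKM in wild type tips and between 0.672 and 0.807 FPKM in bron-2 tips. Both were lower in bron-2 without overlap at these low levels, PLT1 by a narrow margin, whereas WOX5, SHR and SCR overlapped. PLT1 stayed under 1 FPKM and was not tested. Of all tested genes, 15.7% did not overlap between the genotypes. The 3 root cap markers summed to between 41.5 and 59.9 FPKM in the wild type and between 42.8 and 50.2 FPKM in bron-2. The 5 shoot markers summed to between 23.9 and 36.2 FPKM in the wild type and between 23.1 and 30.3 FPKM in bron-2, with RBCS1B listed at 0 in every library. The deposited FPKM summed to between 791546 and 812383 per library. Read counts per library are unknown, but the steps between low values gave depths of 0.994 to 1.27 times that of wild type replicate 1, with all 3 bron-2 libraries deeper than the wild type ones.

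The 100 genes held 22.6% ± 0.131 (SD, n = 3) of the summed FPKM of the wild type libraries, and the 10 highest alone held between 6.48% and 6.73%. In bron-2, whose values the choice did not use, the same 100 genes held 23.4% ± 0.459 (SD, n = 3). The bron-2 libraries gave 23.7%, 22.9% and 23.6%, each above the wild type range of 22.4% to 22.7%. When the 100 genes were instead taken by the mean of all 6 libraries, 98 were the same genes and the shares were 22.6% ± 0.119 and 23.4% ± 0.456. The exact two-sided permutation test of these shares gave p = 0.1, the smallest value that 3 libraries against 3 allow. Since no smaller p was possible, the test cannot decide whether the share differs between genotypes, and no conclusion is drawn from it. The same 6 libraries also chose the genes, so the shares are given as a description.

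Levels fell steeply along the list. EXT3, the highest gene, had a wild type mean of 10663 FPKM, 13.0 times that of the last gene, AT3G48140, at 823 FPKM. By comparison, the median over the 17107 genes was 11.2 FPKM. Sorted by what their products are known to do, the largest family was that of extensins and proline-rich proteins, with 11 genes and 22.8% of the FPKM held by the list. The 10 aquaporins held 14.2%, the 9 arabinogalactan proteins 10.7% and the 7 lipid-transfer-like proteins 8.09%. Only 4 of the 100 were cytosolic ribosomal proteins. No histone, ribosomal RNA or gene of an organelle genome was among them. The transcripts of the 100 genes were shorter than usual, with a median annotated length of 1373 bases against 1737 bases over 17025 tested genes with a model. Of the 100, 23 had a single exon, against 15.5% of the tested genes, and their median GC content was 42.5% against 41.4%. They lay on all 5 chromosomes, with 15 on the chromosome with the fewest and 23 on each of the 2 with the most.

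**Figure D1:**
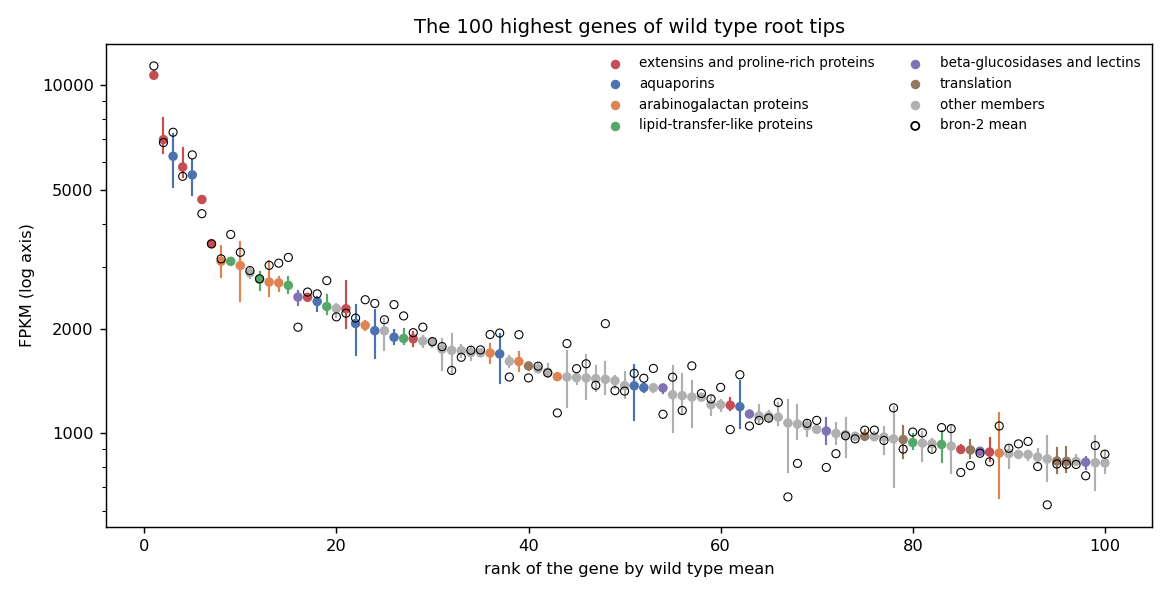
FPKM (log axis) of each of the 100 genes against its rank in the wild type. Filled points are wild type means coloured by family, vertical lines run from the lowest to the highest of the 3 wild type libraries, and open circles are bron-2 means. Extensins and aquaporins fill the first 7 ranks, and most open circles lie close to the filled points.

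**Figure D2:**
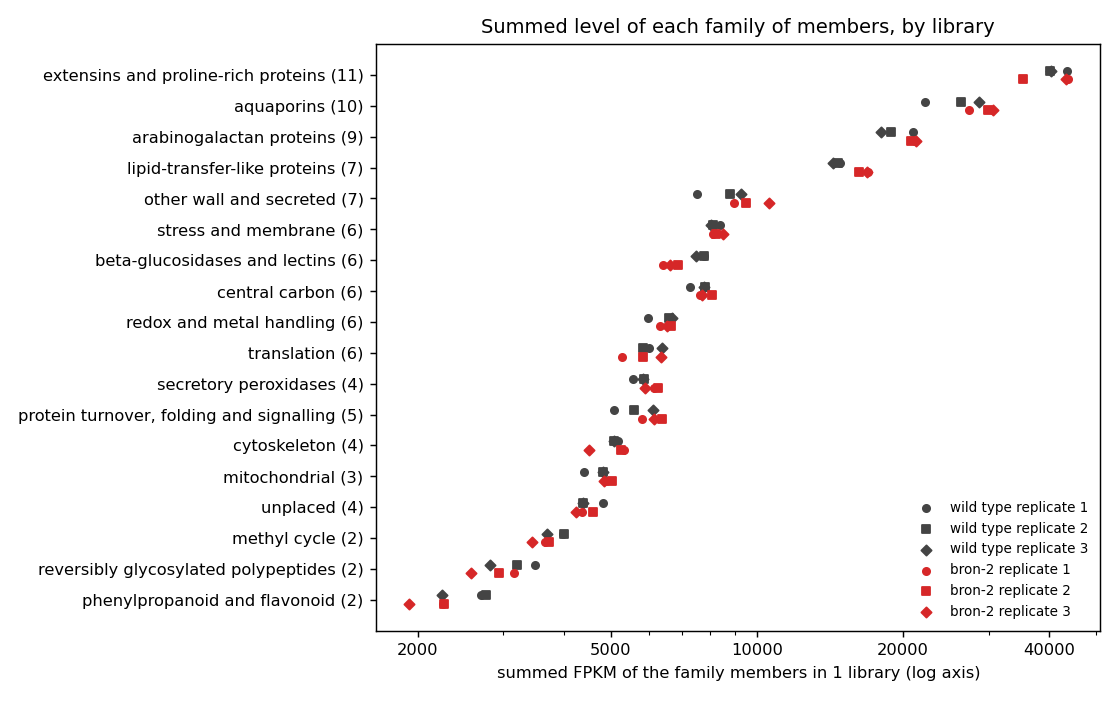
Summed FPKM (log axis) of the members of each family in each library, with the number of genes in brackets. Grey symbols are wild type and red symbols bron-2 libraries, with a symbol shape for each replicate number. In the lipid-transfer-like proteins and in the beta-glucosidases and lectins the genotypes do not overlap. The secretory peroxidases and the mitochondrial members also do not overlap, but by a narrow margin. In the extensins the red symbols spread from 35361 to 43607 FPKM.

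Between genotypes, most of these genes differed by less than 0.2 on the log2 scale. The shares called at an unadjusted p and without overlap were above those of all genes. In a limma fit over all 17107 genes, none of the 100 passed an adjusted p of 0.05 (0.0818% of all genes did), and the smallest adjusted p was 0.264, for the aquaporin gene PIP3. At an unadjusted p under 0.05, 21 of the 100 were called, against 9.79% of all genes. Of these, 13 were higher in bron-2 (4.03% of all genes) and 8 were lower (5.76% of all genes). The 2 groups of 3 libraries did not overlap for 28 of the 100, against 15.7% of all genes. The log2 differences ran from -0.70 to 0.52 with a median of 0.03, against -0.0010 over all genes. Of the 100, 75 were smaller than 0.2 in size, and the share of all genes under this limit is not given here. Because the wild type side of each difference also chose the genes, the count was repeated for the 100 genes with the highest mean of all 6 libraries, where 20 were called, 13 of them higher. The count of 21 was 12 without wild type replicate 2 and 13 without a filter on low values. After quantile normalization 7 members were called higher and 10 lower, and the median log2 difference was -0.0027.

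**Figure D3:**
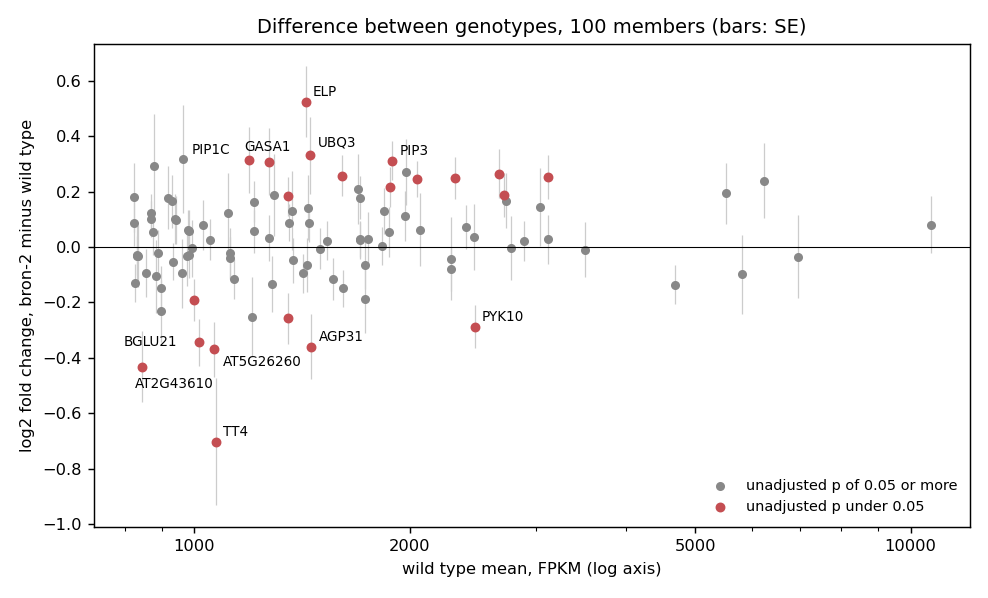
Log2 fold change of bron-2 against wild type, on log2(FPKM + 1), for each of the 100 genes against its wild type mean in FPKM (log axis). Bars are standard errors from limma and red points have an unadjusted p under 0.05. Most points lie within 0.2 of the zero line, with TT4 the lowest at -0.70 and ELP the highest at 0.52.

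Extensins form a network in the wall by crosslinking of their tyrosines, and several of them are known to be made in growing root hairs. EXT3 (AT1G21310, chr1:7453245-7455009, minus strand, on the TAIR10.1 annotation) encodes an extensin that the embryo needs to lay down its new cell walls. It stood at 10479, 10575 and 10935 FPKM in wild type tips and 10774, 10136 and 13116 FPKM in bron-2 tips. It was the highest gene in both genotypes, its bron-2 range enclosed that of the wild type, and its log2 difference was 0.08 (SE 0.10, unadjusted p = 0.461, adjusted p = 0.847). An antisense gene covers part of EXT3, sharing 22.3% of its 100-base stretches, and whether the counting used strand is not given in the sources used here. AT1G23720, an extensin-like gene ranked 2, stood at 8065, 6481 and 6369 FPKM in wild type tips and 7785, 5493 and 7230.5 FPKM in bron-2 tips. AT3G28550, ranked 4, stood at 6575, 5432 and 5440.1 FPKM in the wild type, against 6135, 4388 and 5884 FPKM in bron-2. In both genes the lowest of the 6 libraries was bron-2 replicate 2 and the highest was wild type replicate 1.

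The same library was low across the family. Bron-2 replicate 2 had the lowest value of the 3 bron-2 libraries in 9 of the 11 genes, and bron-2 replicate 1 had the highest in 9 of the 11. The summed FPKM of the family was 43444, 40040.5 and 40252 in the wild type and 43607, 35361 and 43289.7 in bron-2. HRGP1, a hydroxyproline-rich glycoprotein, showed the contrast most plainly. It stood at 2453, 2469 and 2454 FPKM in the wild type, with a coefficient of variation of 0.364%, and at 2966, 2121 and 2549 FPKM in bron-2. EXT6 (AT2G24980) stood at 1266, 1179.6 and 1169 FPKM in wild type tips and 1271, 842 and 966 FPKM in bron-2 tips. Over the family the median SD of log2(FPKM + 1) was 0.063 in the wild type and 0.23 in bron-2, with 0.20 in bron-2 without replicate 2 and 0.14 without replicate 1. No gene of the family had an unadjusted p under 0.05 over all 6 libraries. Of the 11, 3 were higher and 8 lower in bron-2, with a median log2 difference of -0.04. Leaving out bron-2 replicate 2 gave 7 higher and 4 lower (median 0.05), and leaving out bron-2 replicate 1 gave 1 higher and 10 lower (median -0.14), 3 of these at an unadjusted p under 0.05. Without bron-2 replicate 3, 1 gene was lower at that threshold. Without a wild type library the median lay between -0.13 and -0.0038, and after quantile normalization all 11 were lower.

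The other 6 genes of the family ranked between 6 and 88. AT2G43150, ranked 6, was the one member of the family whose groups did not overlap, at 4696, 4760.5 and 4619.9 FPKM in wild type tips and 4125, 4155 and 4539 FPKM in bron-2 tips, with a log2 difference of -0.14 (SE 0.07, unadjusted p = 0.0902, adjusted p = 0.575). AT3G54580 stood at 3535, 3433 and 3547 FPKM in wild type tips and 3838, 3005 and 3655 FPKM in bron-2 tips, and it lies beside HRGP1 on chromosome 3 (chr3:20200573-20203919, minus strand, and chr3:20206128-20208783, plus strand). EXT13, EXT10, EXT12 and the proline-rich protein PRP3, which is known from root hairs, had wild type means of 2280.3, 899.6, 884 and 1869.9 FPKM. Of the 24 genes of this family in the table by product name, 19 were tested and none passed the adjusted p. At an unadjusted p under 0.05 none was higher and 3 were lower, all of them outside the 100. This count leaves out ELP, which is named an extensin-like protein and was higher in bron-2 (log2 difference 0.52, unadjusted p = 0.0039). ELP is described below with other wall proteins.

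**Figure D4:**
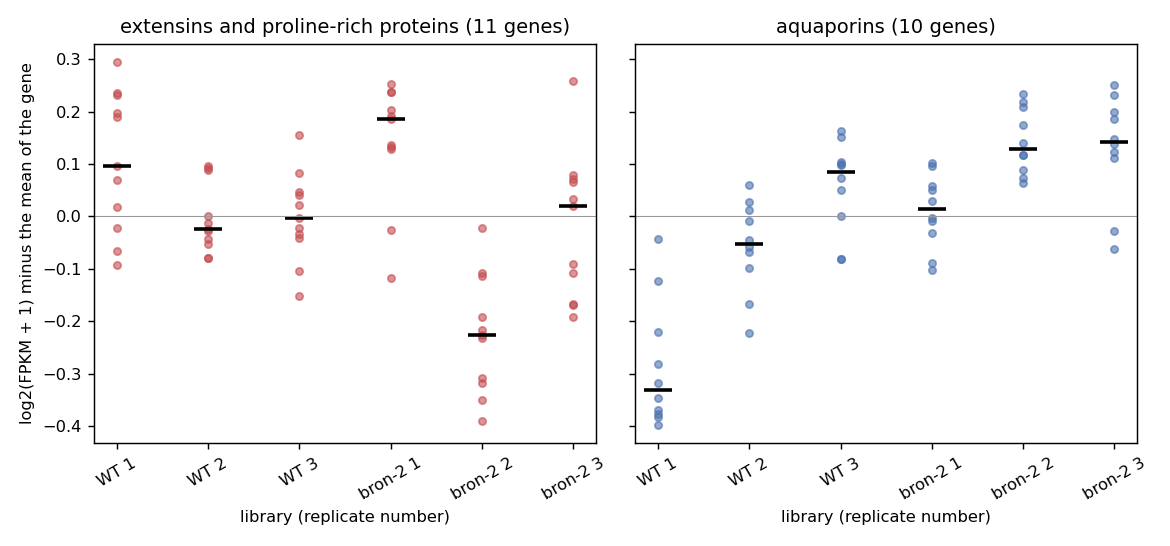
Log2(FPKM + 1) minus the mean of the gene over the 6 libraries, for the 11 extensins and proline-rich proteins (left) and the 10 aquaporins (right), by library. Points are genes and black bars are medians. The extensins are low in bron-2 replicate 2, and the aquaporins are low in wild type replicate 1.

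The promoters of these extensins were also compared. The 6 letters GCACGT, which stand in the core of the consensus known as the root hair element, were found on the strand of the gene in 7 of the 11 promoters, read from 250 bases before to 50 bases after each start in TAIR10.1. They were found in 3 of the other 89 members, in 3 of the 13 genes of the family outside the 100, and in 2.22% of 26703 promoters of the same length. These letters were searched after the values had been seen, and after the G-box core ACGTG had been found in 7 of these 11 promoters. Read on the other strand, GCACGT contains ACGTG, so the count of 7 is not an independent find. The first base of the match lay between 86 and 143 bases before the start. The 7 stretches of 36 bases are shown because they hold these letters, marked in capitals, at the same place in each line.
EXT6 (chr2:10622286-10622321, plus strand): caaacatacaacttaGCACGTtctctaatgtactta
EXT12 (chr4:7783671-7783706, plus strand): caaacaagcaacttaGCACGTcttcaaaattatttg
EXT10 (chr5:2042008-2042043, minus strand): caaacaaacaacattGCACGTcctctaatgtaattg
EXT13 (chr5:13433993-13434028, plus strand): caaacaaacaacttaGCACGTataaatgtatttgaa
AT3G28550 (chr3:10704091-10704126, minus strand): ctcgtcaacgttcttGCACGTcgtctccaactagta
AT3G54580 (chr3:20203985-20204020, minus strand): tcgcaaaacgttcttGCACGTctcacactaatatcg
HRGP1 (chr3:20206001-20206036, plus strand): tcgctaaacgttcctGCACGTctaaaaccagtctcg
EXT6 and EXT10 had the same letter at 30 of the 36 positions, and the neighbours AT3G54580 and HRGP1 at 29. EXT6 and HRGP1 had the same letter at only 12, so the stretches fall into more than 1 type around the shared letters. A match of letters is a description and not evidence of binding.

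Aquaporins are the water channels of the plasma membrane (PIPs) and of the vacuole membrane (TIPs). GAMMA-TIP, the highest of them and ranked 3, stood at 5098, 6411 and 7222 FPKM in wild type tips and 6672, 7288 and 7992 FPKM in bron-2 tips. TIP2 stood at 4835, 5642 and 6087 FPKM in wild type tips and 5751, 6249 and 6905 FPKM in bron-2 tips. Wild type replicate 1 was the lowest of the 6 libraries for both genes, and the groups overlapped. PIP1B, a plasma membrane channel, stood at 2250.0, 2472 and 2451 FPKM in wild type tips and 2500.4, 2701 and 2345 FPKM in bron-2 tips. PIP3 stood at 1805, 1873 and 1987 FPKM in wild type tips and 2257, 2445 and 2328 FPKM in bron-2 tips. PIP3 was the 1 aquaporin whose groups did not overlap, with a log2 difference of 0.31 (SE 0.07, unadjusted p = 0.00274, adjusted p = 0.264). PIP1C stood at 1038, 1131 and 1412 FPKM in the wild type, against 1367, 1553 and 1503 FPKM in bron-2, which overlapped, with a log2 difference of 0.31 (SE 0.12, unadjusted p = 0.0316, adjusted p = 0.461).

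All 10 aquaporins were higher on average in bron-2, 2 of them at an unadjusted p under 0.05, with a median log2 difference of 0.20. After quantile normalization 8 of the 10 were higher. Wild type replicate 1 was the lowest wild type library for 9 of the 10, and without it the median difference was 0.09, 8 of the 10 were higher and 1 had an unadjusted p under 0.05. The summed FPKM of the family was 22194, 26299 and 28589 in the wild type and 27356, 29937 and 30685 in bron-2. CASP1 was also lowest in that library, at 704, 999 and 1191 FPKM in wild type tips and 1011, 1163 and 1378 FPKM in bron-2 tips, whereas the root hair marker COBL9 was highest there, at 149.8 FPKM against 135 and 117 FPKM. The 3 markers of older root summed to between 878 and 1327 FPKM in the wild type and between 1172 and 1519 FPKM in bron-2. CASP1 made up most of this sum, while COBL9 (121 to 140 FPKM in bron-2) and GL2 (18.3 to 24.2 FPKM in the wild type and 19.1 to 22.6 FPKM in bron-2) overlapped between genotypes, and the part of these markers in the aquaporin values was not tested. The other 5 members (PIP2A, PIP1A, PIP2B, TIP2;2 and DELTA-TIP) had wild type means from 1354 to 2068 FPKM. PIP2B shares 11.5% of its 100-base stretches with another aquaporin gene, so their reads could be split. Of 24 tested aquaporin genes by product name, 5 were higher and none lower in bron-2 at an unadjusted p under 0.05, where 4.03% of all genes were higher and 5.76% lower. This count includes the members. Of the 14 tested outside the 100, 10 were higher and 4 lower, 3 and 0 at that threshold, with a median log2 difference of 0.018.

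Arabinogalactan proteins are heavily glycosylated proteins of the cell surface. AGP9, AGP2, AGP4 and AGP24 were among the 20 highest genes. AGP9 stood at 3460.4, 3083 and 2814 FPKM in wild type tips and 3263, 3115 and 3131 FPKM in bron-2 tips. AGP2 stood at 3552, 3148 and 2400.4 FPKM in the wild type, against 3541, 3265 and 3123 FPKM in bron-2. For both genes the wild type libraries were spread more widely than the bron-2 libraries, which lay inside the wild type range. AGP4, part of which lies under an antisense gene, stood at 3119, 2568 and 2472 FPKM in wild type tips and 2969.9, 3165 and 2976 FPKM in bron-2 tips.

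At an unadjusted p under 0.05, 3 of the 9 members were higher in bron-2 and 1 was lower. AGP24 stood at 2817, 2564 and 2736 FPKM in wild type tips and 3043, 2898 and 3303 FPKM in bron-2 tips without overlap, with a log2 difference of 0.19 (SE 0.08, unadjusted p = 0.0467, adjusted p = 0.501). FLA9, which carries fasciclin domains known for cell adhesion in animals, stood at 2050.4, 1975 and 2103 FPKM in wild type tips and 2409.6, 2406 and 2443 FPKM in bron-2 tips, a log2 difference of 0.24 (SE 0.06, unadjusted p = 0.00558, adjusted p = 0.319). Its bron-2 libraries were the steadiest of all 100 genes, with a coefficient of variation of 0.843%. AGP14, which is known from root hairs, had a log2 difference of 0.26 (SE 0.07, unadjusted p = 0.0086, adjusted p = 0.337). AGP31 went the other way. Its levels were 1459.6, 1446 and 1462 FPKM in wild type tips and 1007, 1055 and 1375 FPKM in bron-2 tips, and its log2 difference was -0.36 (SE 0.12, unadjusted p = 0.0165, adjusted p = 0.396). Its coefficient of variation was only 0.615% in the wild type, and bron-2 replicate 3 lay close to the wild type values. AGP3 and AGP15 had wild type means of 1701 and 879 FPKM. In all, 8 of the 9 members were higher and 1 lower in bron-2, or 7 and 2 after quantile normalization and 6 and 3 without wild type replicate 3. Of 47 tested genes of the family by product name, 9 were higher (4.03% of all genes) and 3 lower (5.76% of all genes) at an unadjusted p under 0.05, and none passed the adjusted p. Of the 38 tested outside the 100, 26 were higher and 12 lower, 6 and 2 at that threshold, with a median log2 difference of 0.075.

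The lipid-transfer-like proteins are small secreted proteins with a fold held together by conserved cysteines. They included 2 pairs of neighbouring genes, AT4G12510 and AT4G12520 on chromosome 4 (chr4:7417068-7417873, minus strand, and chr4:7420951-7421828, minus strand) and AT5G46890 and AT5G46900 on chromosome 5 (chr5:19036296-19036938, minus strand, and chr5:19039701-19040456, minus strand). With AT3G54580 and HRGP1 these were the only members within 10 kb of another member. The first pair is so alike that an unbroken run of 441 bases is identical in the transcripts of both genes. The first 120 coding bases of AT4G12510 are shown because they lie in this run, with the start codon at the front, so a read of 100 bases from here could come from either gene.
AT4G12510 (chr4:7417684-7417803, minus strand): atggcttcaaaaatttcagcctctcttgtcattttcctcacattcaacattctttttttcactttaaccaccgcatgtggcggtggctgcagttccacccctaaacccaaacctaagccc
Their values therefore depend on how the authors' tool split shared reads, and the 2 genes are not independent of each other.

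AT4G12520 stood at 3141, 3162 and 3052 FPKM in wild type tips and 3975, 3793 and 3404 FPKM in bron-2 tips, a log2 difference of 0.25 (SE 0.08, unadjusted p = 0.013, adjusted p = 0.376). AT4G12510 stood at 2524, 2812 and 2647 FPKM in wild type tips and 3499, 3181 and 2920.2 FPKM in bron-2 tips, a log2 difference of 0.26 (SE 0.09, unadjusted p = 0.0183, adjusted p = 0.404). In both genes every bron-2 library lay above every wild type library. AT5G46900 stood at 2501, 2205 and 2235 FPKM in wild type tips and 2702, 2693 and 2841 FPKM in bron-2 tips, also without overlap, with a log2 difference of 0.25 (SE 0.08, unadjusted p = 0.0122, adjusted p = 0.368). Its neighbour AT5G46890, which shares 18.9% of its 100-base stretches with it, was likewise higher without overlap, with a log2 difference of 0.22 (SE 0.07, unadjusted p = 0.0184, adjusted p = 0.405). AT4G15160 differed from these, standing at 2911, 2824 and 2579 FPKM in wild type tips and 2682, 2415 and 3241 FPKM in bron-2 tips, which enclosed the wild type range. AT4G12545 and AT3G22620 had wild type means of 942 and 930.0 FPKM. The summed FPKM of the 7 genes was 14828, 14674 and 14325 in the wild type and 16946, 16235 and 16836 in bron-2. After quantile normalization the difference of AT4G12510 was 0.12 (SE 0.08), the median of the 7 genes was 0.11 in place of 0.22, and 1 gene in place of 4 was higher at an unadjusted p under 0.05. Of the 41 tested genes of this product class, 9 were higher and 3 lower at that threshold, against 4.03% and 5.76% of all genes. Of the 34 tested outside the 100, 18 were higher and 16 lower, 5 and 3 at that threshold, with a median log2 difference of 0.0079.

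Several of the beta-glucosidases and lectins belong to the ER body, a store of defence enzymes found in roots and seedlings. PYK10, the beta-glucosidase that fills these bodies, stood at 2489.9, 2562 and 2337 FPKM in wild type tips and 1871, 2098 and 2084 FPKM in bron-2 tips, a log2 difference of -0.29 (SE 0.08, unadjusted p = 0.00635, adjusted p = 0.32). PBP1, a lectin that binds PYK10, stood at 1309, 1367 and 1377 FPKM in wild type tips and 995, 1219 and 1191 FPKM in bron-2 tips, a log2 difference of -0.26 (SE 0.09, unadjusted p = 0.0242, adjusted p = 0.432). BGLU21, a beta-glucosidase of the same kind, stood at 1111, 1005 and 933 FPKM in wild type tips and 762, 818 and 817 FPKM in bron-2 tips, a log2 difference of -0.34 (SE 0.08, unadjusted p = 0.00377, adjusted p = 0.289). For these 3 genes every bron-2 library was below every wild type library. The lectin genes AT1G52070 and JAL34 were also lower without overlap, with log2 differences of -0.12 (SE 0.07, unadjusted p = 0.154, adjusted p = 0.648) and -0.13 (SE 0.07, unadjusted p = 0.101, adjusted p = 0.587). BGLU35, a root myrosinase that cleaves glucosinolates, overlapped, with a log2 difference of -0.02 (SE 0.09, unadjusted p = 0.79, adjusted p = 0.957). The summed FPKM of the 6 genes was 7768, 7788 and 7496 in the wild type and 6415, 6869.8 and 6623 in bron-2. Of 50 tested genes of these product classes, 3 were higher and 13 lower at an unadjusted p under 0.05, and 1 passed the adjusted p (4.03%, 5.76% and 0.0818% of all genes). Of the 44 tested outside the 100, 23 were higher and 21 lower, 3 and 10 at the unadjusted threshold, with a median log2 difference of 0.0060. BGLU35 shares 9.93% of its 100-base stretches with another beta-glucosidase gene.

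Other secreted and wall proteins held the largest positive difference. ELP (AT1G12090), an extensin-like protein, stood at 1299, 1391 and 1599 FPKM in wild type tips and 1784, 1984 and 2429.9 FPKM in bron-2 tips, a log2 difference of 0.52 (SE 0.13, unadjusted p = 0.0039, adjusted p = 0.292). No wild type library reached the lowest bron-2 value. GASA1, a small cysteine-rich protein of a family induced by gibberellin, stood at 1045, 1360.2 and 1409.7 FPKM in wild type tips and 1451, 1609 and 1630.3 FPKM in bron-2 tips. Its groups did not overlap by a narrow margin, and its log2 difference was 0.31 (SE 0.12, unadjusted p = 0.0361, adjusted p = 0.474), or 0.17 without wild type replicate 1. UCC2, a copper protein of the uclacyanin family, stood at 1732, 2050.0 and 2128 FPKM in wild type tips and 2171, 2121 and 2068 FPKM in bron-2 tips. The germin-like protein gene GLP5 was among the 5 least steady in bron-2, at 1082, 1079 and 1522 FPKM, where replicate 3 stood apart from the other 2. AT1G78040, of the Ole e 1 family, was among the 5 steadiest, at 899, 924 and 881 FPKM. The chitinase gene AT2G43610 was lower in bron-2, at 732, 986 and 817 FPKM in wild type tips and 555, 623 and 694 FPKM in bron-2 tips, with a log2 difference of -0.43 (SE 0.13, unadjusted p = 0.0102, adjusted p = 0.362).

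The list also held 2 genes of phenylpropanoid metabolism. TT4 (AT5G13930, chr5:4488476-4490264, plus strand) encodes chalcone synthase, which opens the pathway to flavonoids. TT4 stood at 1249, 1192 and 774 FPKM in wild type tips and 795, 693 and 485 FPKM in bron-2 tips. Wild type replicate 3 lay below bron-2 replicate 1, so the groups overlapped, and both genotypes had their lowest value in replicate 3. The log2 difference of -0.70 (SE 0.23, unadjusted p = 0.0159, adjusted p = 0.39) was the largest of the 100, and over the fits that left out 1 library it ran from -0.92 to -0.50. CCoAOMT1, a methyltransferase of lignin synthesis, stood at 1448, 1579.6 and 1467 FPKM in wild type tips and 1465, 1576 and 1435 FPKM in bron-2 tips, with a log2 difference of -0.01 (SE 0.07, unadjusted p = 0.934, adjusted p = 0.988).

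Enzymes of central carbon metabolism had a median SD of log2(FPKM + 1) of 0.053 in bron-2, against 0.094 over the 100 genes, and of 0.089 in the wild type, against 0.090. GAPC1, a glycolytic glyceraldehyde-3-phosphate dehydrogenase, stood at 1840.2, 1884 and 1766 FPKM in wild type tips and 1801, 1921 and 1783 FPKM in bron-2 tips. The aldolase gene FBA8 stood at 1688, 1729.7 and 1694 FPKM in the wild type, against 1728, 1772 and 1711 FPKM in bron-2. Both overlapped between genotypes, and their log2 differences were 0.00 and 0.03. Malate dehydrogenase c-NAD-MDH1, the enolase LOS2, the triosephosphate isomerase TPI and GAPC2 completed the 6 genes of this family, which ran from 0.00 to 0.10 on the log2 scale. In the methyl cycle, which remakes methionine after methylation reactions, the methionine synthase gene ATMS1 stood at 2356, 2343 and 2152 FPKM in wild type tips and 2238, 2230.3 and 2015 FPKM in bron-2 tips. HOG1, the S-adenosylhomocysteine hydrolase of this cycle, was lower without overlap, with a log2 difference of -0.15 (SE 0.07, unadjusted p = 0.058, adjusted p = 0.528). AAC1, which exchanges ADP for ATP across the inner mitochondrial membrane, stood at 2793, 2987 and 2890.4 FPKM in wild type tips and 2964, 3065 and 2770.5 FPKM in bron-2 tips. AT5G47030, a subunit of the mitochondrial ATP synthase, and the CHCH domain gene AT5G64400 were the other 2 mitochondrial members, with log2 differences of 0.12 and 0.18.

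The 4 secretory peroxidases, enzymes that crosslink or cleave wall polymers, had wild type means from 993 FPKM for AT5G64100 to 1842 FPKM for AT5G17820, with AT3G01190 and AT4G30170 between them. AT5G17820 stood at 1765, 1907 and 1853 FPKM in wild type tips and 2173, 2040.4 and 1842 FPKM in bron-2 tips, and none of the 4 had an unadjusted p under 0.05. Of 47 tested peroxidase genes by product name, 7 were higher and 1 lower at that threshold (4.03% and 5.76% of all genes). Redox and metal proteins numbered 6. The ascorbate peroxidase APX1 stood at 1526, 1841 and 1871 FPKM in wild type tips and 1759, 1867 and 1701 FPKM in bron-2 tips. CCH, a chaperone that carries copper, had 688, 799 and 986 FPKM in wild type tips but 905, 939 and 926 FPKM in bron-2, where it was among the 5 steadiest genes. GSTF8, GSTU19, GSTF10 and the thioredoxin TRX3 differed by less than 0.1 on the log2 scale. RGP1 and RGP2, the mutases that make the arabinose donor for wall synthesis, had wild type means of 1732 and 1437 FPKM, and in both the lowest library of each genotype was replicate 3.

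Cytoskeletal genes were the actins ACT2 and ACT8 and the profilins PFN2 and PRF1. ACT2 stood at 1792, 1738 and 1654 FPKM in wild type tips and 1783, 1689.8 and 1491 FPKM in bron-2 tips. ACT8 stood at 1259, 1278 and 1275 FPKM in the wild type, against 1342, 1395 and 1172 FPKM in bron-2. In all 4 genes bron-2 replicate 3 was the lowest bron-2 library, and the log2 differences lay between -0.07 and 0.03. Of the genes for protein turnover, folding and signalling, UBQ3 and UBQ10 encode polyubiquitins, which consist of repeats of ubiquitin. UBQ3 stood at 1190.0, 1439.9 and 1726 FPKM in wild type tips and 1620.2, 1889.5 and 1925 FPKM in bron-2 tips, overlapping, with a log2 difference of 0.33 (SE 0.14, unadjusted p = 0.0459, adjusted p = 0.499), or 0.20 without wild type replicate 1. UBQ10 stood at 1011, 1301 and 1562 FPKM in the wild type, against 1417, 1542 and 1392 FPKM in bron-2, with a log2 difference of 0.19 (SE 0.15, unadjusted p = 0.241, adjusted p = 0.723). The chaperone gene HSC70-1 was lower without overlap, at 1070.2, 996 and 934 FPKM in wild type tips and 844, 892 and 889 FPKM in bron-2 tips, with a log2 difference of -0.19 (SE 0.08, unadjusted p = 0.0364, adjusted p = 0.474). ARFA1E, a small GTPase of vesicle transport, and the 14-3-3 protein GRF1 had log2 differences of 0.06 and 0.10.

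Translation was represented by 6 genes. The elongation factor gene AT5G60390 stood at 1576, 1516 and 1596 FPKM in wild type tips and 1331, 1482 and 1518 FPKM in bron-2 tips. FBR12, which encodes the initiation factor eIF-5A, stood at 961, 958 and 1025 FPKM in the wild type, against 943, 1042 and 1080.4 FPKM in bron-2. The ribosomal protein genes were AT4G15000, AT5G20290, EMB2296 and AT1G67430, with wild type means from 832 to 960.4 FPKM. AT4G15000 stood at 1049.7, 851 and 980.4 FPKM and AT5G20290 at 849.7, 880.2 and 961 FPKM in the wild type. In bron-2, all 6 genes had their lowest value in replicate 1 and their highest in replicate 3. Of the 6, 1 was higher and 5 lower in bron-2, none at an unadjusted p under 0.05, and 3 were higher and 3 lower without bron-2 replicate 1 or without wild type replicate 3.

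The promoters of these 6 genes shared the letters TGGGCC or TGGGCT, known as site II and found before many genes of the translation machinery. Searched on both strands from 250 bases before to 50 after the start, site II was found in 6 of 6 translation members, in 5 of 6 central carbon members and in 0 of 11 extensins and proline-rich proteins. Over the whole list the share was 25%, close to the 22.0% of all 26703 promoters. The 100 bases before each start are shown to place the matches, in capitals, where GGCCCA and AGCCCA are the same letters read on the other strand.
AT5G60390 (chr5:24288496-24288595, plus strand): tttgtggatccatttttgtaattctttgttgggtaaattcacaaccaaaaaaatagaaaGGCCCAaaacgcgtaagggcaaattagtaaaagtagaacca
FBR12 (chr1:9205700-9205799, plus strand): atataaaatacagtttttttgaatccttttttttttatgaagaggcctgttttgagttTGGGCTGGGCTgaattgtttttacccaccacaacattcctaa
AT4G15000 (chr4:8571716-8571815, plus strand): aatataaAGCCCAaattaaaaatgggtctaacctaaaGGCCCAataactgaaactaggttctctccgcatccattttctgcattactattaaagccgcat
AT5G20290 (chr5:6853107-6853206, minus strand): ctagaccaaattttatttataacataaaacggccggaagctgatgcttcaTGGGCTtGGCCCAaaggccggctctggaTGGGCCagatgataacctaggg
EMB2296 (chr2:7836967-7837066, plus strand): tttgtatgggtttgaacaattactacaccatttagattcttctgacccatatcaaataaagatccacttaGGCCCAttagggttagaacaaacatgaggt
AT1G67430 (chr1:25262034-25262133, plus strand): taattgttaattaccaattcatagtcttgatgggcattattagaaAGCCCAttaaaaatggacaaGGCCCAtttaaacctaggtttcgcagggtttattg
The TATA box (TATAAA or TATATA) was found in 78.0% of the member promoters and in 64.5% of all promoters, among them 10 of the 11 extensins and proline-rich proteins. The telo box (AAACCCTA) was found in 7% and 6.17%. The G-box core (ACGTG) was found in 30% and 26.9%, and in 7 of the 11 extensins and proline-rich proteins. Read on the other strand, GCACGT contains ACGTG, so each match of GCACGT is also a match of the G-box core.

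Genes known from responses to cold, salt or drying made up a further 6, namely PLAT2, AT5G54370, RCI2B, the annexin ANNAT1, the dehydrin AT1G54410 and COR413-PM1, with wild type means from 977 to 1534 FPKM. PLAT2 stood at 1497, 1522 and 1582 FPKM in wild type tips and 1497, 1522 and 1661 FPKM in bron-2 tips, and none of the 6 had an unadjusted p under 0.05. The last 4 members were not placed in a family. Among them, AT5G26260, which encodes a TRAF-like protein, stood at 1208, 1023 and 961 FPKM in wild type tips and 838, 855 and 769 FPKM in bron-2 tips. It was lower without overlap, with a log2 difference of -0.37 (SE 0.10, unadjusted p = 0.00627, adjusted p = 0.32). The acid phosphatase family gene AT5G44020 was higher without overlap, with a log2 difference of 0.18 (SE 0.07, unadjusted p = 0.0346, adjusted p = 0.47). AT1G04040, of the same family, and the B12D protein gene AT3G48140 had log2 differences of -0.13 and 0.08.

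Between replicates these genes were steady. Over the bron-2 libraries, which the choice did not use, the SD of log2(FPKM + 1) had a median of 0.094 over the 100 genes, 0.10 over the 900 genes ranked next, and 0.13 over all 17107 genes. An SD under 0.1 was found for 54 of the 100, for 49.6% of those 900 and for 36.3% of all genes. The wild type gave a median of 0.090 over the 100 genes, 0.097 over the 900 genes ranked next and 0.14 over all genes. The range among the 100 in bron-2 was wide, from 0.012 for FLA9 to 0.37 for TT4. The 5 steadiest were FLA9, FBA8, CCH, AT1G78040 and UCC2, and the 5 least steady were TT4, EXT6, GLP5, AT1G23720 and AT3G28550, of which 3 are extensins. Over all 6 libraries, the highest value was less than 1.2 times the lowest for 30 of the 100 genes, more than 1.5 times for 12 and more than 2 times for 1, TT4, at 2.58 times. This ratio also holds the difference between genotypes, and its shares over all genes are not given here.

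**Figure D5:**
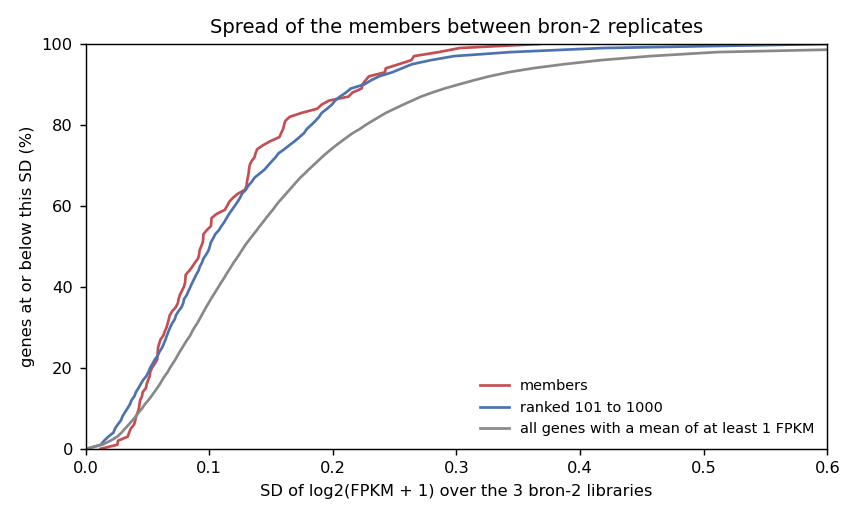
Share of genes (%) with at most the given SD of log2(FPKM + 1) over the 3 bron-2 libraries, for the 100 genes, for the 900 genes ranked next in the wild type, and for all 17107 genes tested. The curve of the 100 genes runs close to that of the genes ranked next, and both lie above the curve of all genes at an SD of 0.1.

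The membership of the list was largely kept in bron-2. Of the 100 genes, 94 were also among the 100 highest by the bron-2 mean, and 80 were among the 100 highest in each of the 6 libraries taken alone. The 6 that left were BGLU21 (rank 103 in bron-2), GSTF10 (102), EXT10 (111), JAL34 (117), TT4 (148) and AT2G43610 (164). Their places were taken by AT3G22600, AIR1, AGP7, AT2G30930, PIP2;4 and GASA4, which all ranked within the first 134 of the wild type. These include an arabinogalactan protein, an aquaporin and lipid-transfer-like genes, families that the list already held. The largest step up among them was that of GASA4, a relative of GASA1, from rank 131 to rank 82. Its values were 721, 654 and 773 FPKM in wild type tips and 866, 911 and 1007 FPKM in bron-2 tips. The limit of the list is not a gap in expression. Just inside it lay AT1G67430 and TRX3 (both 832 FPKM), JAL34 (827), CCH (824) and AT3G48140 (823). Just outside lay AT3G22600 (818), the extensin-like gene AT5G06630 (814), the lectin gene AT1G52060 (812), TCTP (811) and AT5G14330 (807).

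Of the functional groups set by product name, the cell wall and extracellular group gave most members, 23 of its 412 tested genes. The group of lectins, defence and lipid transfer gave 12 of 372, membrane transport and energy 11 of 779, and peroxidases and redox 9 of 236. These name patterns are rough. They wrongly placed the methyltransferase gene CCoAOMT1 with the lectins, and may have placed other such genes there. They left the aquaporin gene DELTA-TIP and the beta-glucosidase genes PYK10 and BGLU21 outside the named groups. Outside the 100, 389 genes of the cell wall group were tested, of which 35 were higher and 37 lower in bron-2 at an unadjusted p under 0.05, and none passed the adjusted p. The table also limits how exactly single members are known. Of the 100, 23 share at least a 100-base stretch with another gene, 15 share more than 5% of their stretches, and 22 overlap a gene annotated on the other strand. No member was listed at 0 in any library.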

How the data were processed

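The authors sequenced root tip RNA of 3 wild type and 3 bron-2 samples with single-end reads of 100 bases and mapped them to TAIR10 using Cufflinks. Its version, the annotation and the use of strand are not given in the sources used here. The deposited values are FPKM, which the authors normalized for transcript length and library size. Of 33560 identifiers, 32826 were found in the RefSeq TAIR10.1 annotation, from which names, coordinates and sequences were taken. No value column was left unmapped, and no 2 columns were identical. Replicates are the authors' biological replicates.

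Genes averaging 1 FPKM or more were compared by limma 3.58.1 under R 4.3.3 after a log2(FPKM + 1) transformation (eBayes with a variance trend, two-sided, Benjamini-Hochberg over all tested genes). The fit was tested on simulated data. Fold changes on this scale understate the change of low genes. Without counts, the precision of a value rests on its 3 libraries. An unadjusted p is given because the authors called genes at an unadjusted p of 0.05 with PoissonSeq, which needs counts. Tables were handled with pandas 2.3.3 and scipy 1.17.1 in Python 3.11.15.

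The members, lists and tests were chosen with earlier results of these data known. Genes given with values were the 20 highest, the 6 largest positive and negative differences at an unadjusted p under 0.05, the 5 steadiest and 5 least steady in bron-2, the 2 highest of each functional group, those around the limit, and BRON. Others are named to account for every member. Families, the letters GCACGT and the genes that entered the list in bron-2 were chosen after values were seen. Alternatives were another pseudocount, filter, scaling or variance model, a replicate block, other ways to choose the members, and leaving out each library.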

Additional observations from a re-analysis of the deposited data

How the results depend on the processing

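Among members with an unadjusted p under 0.05, none of the 6 largest differences in each direction changed direction under any alternative. These genes were chosen for their large differences, and where the groups do not overlap, leaving out 1 library cannot change the direction. The kept directions are therefore no independent check. None of the 100 genes passed the adjusted p except 1 with the replicate block, TT4 (adjusted p = 0.0345). The count of members at an unadjusted p under 0.05 was 13 without a filter, 31 with the replicate block and between 12 and 26 when 1 library was left out. Over all genes, 1674 had an unadjusted p under 0.05 (1056 to 2298 when 1 library was left out) and 14 passed the adjusted p, with 7 at a minimum of 5 FPKM, 16 with the replicate block and 8 to 33 when 1 library was left out. The labels do not say whether replicates with the same number were grown or prepared together. The correlation of deviations by number was 0.123, -0.0133 and 0.186 over all genes, and 0.464, 0.385 and 0.342 over the 100 genes, where each library correlated best with its own number. The overlap with the 100 highest genes of bron-2 was 89 to 94 when 1 library was left out, 45 for lists of 50 genes and 188 for lists of 200. The share of summed FPKM ran from 22.5% to 22.7% in the wild type and from 23.2% to 23.6% in bron-2 when 1 library was left out. The median SD then ran from 0.064 to 0.11 in the wild type and from 0.071 to 0.097 in bron-2. The telo box was found in 2% of member promoters before the start alone. On the strand of the gene alone, site II was found in 16% and the G-box core in 15%. The choice of the members by all 6 libraries for the count of calls, and the family values without a library, were added after seeing the data. The causes of these shifts were not tested, and the unknown read depth limits what can be said of single libraries.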

Other observations

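The cytosolic ribosomal proteins, which gave 4 of the 100 genes, were many genes of moderate level. This group was set by product name, so it may also hold genes of other ribosomes or with similar names. Its 370 genes held 7.76% of the summed wild type FPKM, more than the 5.49% of the 24 extensins and proline-rich proteins. The highest ribosomal gene ranked 79. Of 329 tested, 55 were higher and 274 lower in bron-2, where 49.7% of all genes were higher. At an unadjusted p under 0.05, 3 were higher and 45 lower (4.03% and 5.76% of all genes), and none passed the adjusted p. Without bron-2 replicate 1 these counts were 132 higher and 197 lower, with 7 and 26 at that threshold. Without bron-2 replicate 3 they were 32 higher and 297 lower, with 0 and 97 at that threshold. Without wild type replicate 3 they were 93 and 236, with 8 and 34. The part of these libraries in the difference was not tested.

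Metallothioneins, small proteins that bind metals, were looked up after the values had been seen, since none was among the 100. MT1A stood at 447, 585 and 442 FPKM in wild type tips and 369, 342 and 729.6 FPKM in bron-2 tips, at an annotated length of 138 bases. MT2A stood at 7.95, 8.45 and 16.1 FPKM in wild type tips and 13.3, 17.6 and 22.5 FPKM in bron-2. MT3 lay between 3.01 and 5.56 FPKM in all 6 libraries. DWF1, a gene of sterol synthesis, was listed at 0 in wild type replicate 1 and between 329 and 357 FPKM in the other 5 libraries, the only gene at 0 in a wild type library and above 300 FPKM in another library. The reason for this 0 was not tested, and an exact 0 in these values is to be read with care.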
